A study of Homo sapiens with 22 samples.

Results

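Galectins are small proteins that bind glycans ending in galactose, on cell surfaces and inside cells, and bridge or sort the glycoproteins that carry them. LGALS1 encodes a prototype galectin that works as a dimer of a single binding domain, LGALS3 the chimera type with a collagen-like tail, and LGALS8, LGALS9 and LGALS12 encode tandem-repeat types with a pair of binding domains. LGALS3BP is no galectin itself but a secreted glycoprotein that galectins bind. In maturing erythroid cells these glycans sit on the membrane and vesicle proteins that are remodelled as the cell becomes a reticulocyte.

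RNA-Seq counts of 6 genes, LGALS1, LGALS3, LGALS3BP, LGALS8, LGALS9 and LGALS12, were followed among the 59087 gene names of the count tables. The genes were listed by symbol, and LGALS1 was selected on its levels in the H2A.X knockout, so its values in that experiment, and all KO against WT values of that experiment, are given as a description, with SE and no p. Counts of calls in those contrasts stand beside the share of all genes called in the main fit. The closing section gives these counts under other settings without such a share. Nothing is read from either. HUDEP-2, an immortalized human erythroid progenitor line, was sampled while proliferating in expansion medium (D0) and on day 6 in differentiation medium (D6). On each day there were 2 libraries of WT and 3 of H2A.X KO in the first experiment, and 3 of each genotype in the second, on BAZ1B, which made 22 libraries in all. The KO cells were subclones grown from single cells after CRISPR/Cas9 deletion with a pair of guides, of the coding region of the histone gene for H2A.X and of the first exon for the kinase BAZ1B. Both media held EPO, SCF and doxycycline, and the expansion medium also dexamethasone. Each KO group therefore describes 3 clones. The paper speaks of WT subclones too for the H2A.X RNA-Seq. Nothing in the labels says from how many subclones or cultures the WT libraries came, so the p-values measure the spread between these libraries, which may be technical.

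Total counts were 11910141 to 21013004 per library in the H2A.X experiment and 33199408 to 41273244 in the BAZ1B experiment, and the biological coefficient of variation was 0.239 in the first and 0.0865 in the second. In the H2A.X KO libraries H2AFX, the gene of the deleted histone, was below both WT libraries on each day, with log2 fold changes of -1.50 at D0 and -1.52 at D6. In the BAZ1B KO libraries BAZ1B was lower by -0.40 at D0 (edgeR adjusted p = 0.00415) and -0.38 at D6 (edgeR adjusted p = 0.00250) on the log2 scale, where reads on the exons outside the deletion still count. The globin genes and ALAS2, the erythroid enzyme of heme synthesis, which were examined as markers of the line, passed the filter in both experiments, though 1 globin gene was at 0 in the BAZ1B KO libraries at D0. The 2 WT libraries at D0 of the H2A.X experiment stood apart from every other D0 library. An index of maturation, the mean log2(CPM + 1) of 609 genes that rose minus that of 1013 genes that fell from D0 to D6 in BAZ1B WT, was 0.35 and 0.43 in those 2 libraries, against -1.21 to -0.73 in the H2A.X KO libraries at D0 and -1.65 to -1.40 in the 6 D0 libraries of the BAZ1B experiment. At D6 it was 1.29 and 1.81 in H2A.X WT, 1.70 to 2.71 in H2A.X KO, 1.83 to 2.03 in BAZ1B WT and 1.45 to 1.76 in BAZ1B KO. Every BAZ1B KO library at D6 thus lay below every BAZ1B WT library, in which the genes of the index were chosen. The part of this index in the galectin differences between BAZ1B KO and WT was not tested. The word Redo stood in the column names of 5 of the 6 H2A.X KO libraries, all but KO replicate 3 at D6, and in 0 of the 4 WT libraries of that experiment. In that experiment the log2 fold change of KO against WT also rose with transcript length across 12013 genes (Spearman's correlation 0.54 at D0 and 0.60 at D6), against -0.03 and 0.05 across 12404 genes in the BAZ1B experiment. Genes are not independent replicates, so these values are a description.

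Values are CPM, counts relative to library sizes scaled by edgeR's TMM factors, and levels of different genes are compared only as CPM per kilobase of the canonical transcript. The 2 tables were normalized separately. Coordinates are those of GENCODE 44 on GRCh38, the build of the deposited counts. In a bulk library, fewer cells that carry a transcript and less of it per cell cannot be told apart.

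Of the 6 genes, 5 passed the filter on low counts in both experiments, and LGALS12, best known from adipocytes, did not. LGALS12 lies on chromosome 11 from 63506052 to 63516774 on the plus strand. It had 0 reads in all 10 H2A.X libraries, where 3 reads, the limit that a count of 0 allows, are worth 0.140 to 0.306 CPM. In the BAZ1B experiment LGALS12 had at most 4 reads in a library (0.124 CPM, in KO replicate 2 at D6), so no difference of it was detectable at this depth.

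The order of levels was the same in all 3 BAZ1B WT libraries of a day. At D0, LGALS3 was highest at 285 ± 5.59 CPM per kb (SD, n = 3), followed by LGALS1 at 198 ± 8.77, LGALS9 at 68.4 ± 2.84, LGALS8 at 8.10 ± 0.254 and LGALS3BP at 1.24 ± 0.177. At D6, LGALS3 stood at 272 ± 14.5 CPM per kb, LGALS9 at 102 ± 7.43, LGALS8 at 8.62 ± 0.0493, LGALS1 at 7.58 ± 0.570 and LGALS3BP at 0.472 ± 0.0802. LGALS1 thus moved from the second place to a level just under LGALS8, and its highest D6 library stayed below the lowest of LGALS8. In the WT libraries of the H2A.X experiment LGALS1 stood below LGALS3 and LGALS9 on both days, at 14.9 ± 3.02 CPM per kb (SD, n = 2) at D0 and 32.3 ± 11.9 at D6, with LGALS9 at 65.6 ± 6.62 at D0.

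**Figure D1:**
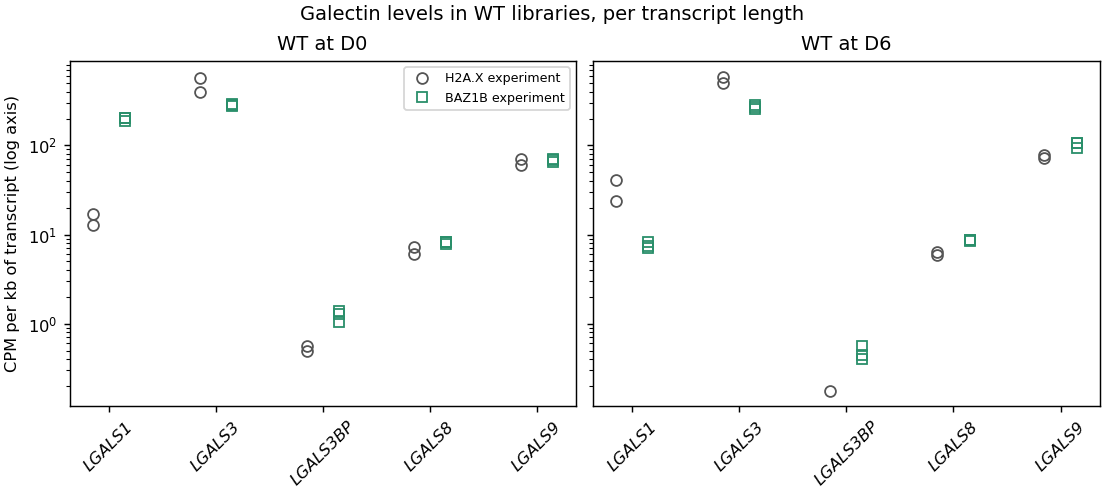
Level of 5 galectin transcripts in each WT library in CPM per kb of transcript (log axis), at D0 on the left and D6 on the right, with circles for the H2A.X and squares for the BAZ1B experiment; the LGALS3BP count of 0 in H2A.X WT replicate 2 at D6 is not drawn. LGALS3 is highest in every library. LGALS1 differs most between the days in the BAZ1B experiment and between the experiments at D0.

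LGALS1, which encodes the dimeric galectin-1, has 4 exons in its canonical transcript of 528 bp and lies on chromosome 22 from 37675636 to 37679802 on the plus strand. In BAZ1B WT it stood at 99.4, 108 and 106 CPM at D0 and at 4.34, 3.91 and 3.75 CPM at D6. The days did not overlap, and LGALS1 fell 26.1-fold (log2 fold change -4.71, SE 0.222, edgeR adjusted p = 1.23e-09). In BAZ1B KO it went from 86.2, 119 and 144 CPM at D0 to 2.66, 1.45 and 0.947 CPM at D6, a fall of 68.0-fold (log2 fold change -6.09, SE 0.250, edgeR adjusted p = 4.22e-10). Of the 13879 genes tested, 135 had a lower log2 fold change in WT and 121 in KO. At D0 the KO and WT libraries overlapped (log2 fold change 0.15, SE 0.168, 95% interval -0.23 to 0.54, edgeR adjusted p = 0.730). At D6 all 3 KO libraries lay below all 3 WT libraries, 2.34-fold lower on the whole (log2 fold change -1.22, SE 0.323, edgeR adjusted p = 0.0249). That call was lost without any 1 of WT replicates 1, 2 and 3 or KO replicates 2 and 3 at D6, with log2 fold changes of -1.28 to -0.93 and adjusted p from 0.0578 to 0.0920, within a range of 9.85e-21 to 0.0920 over all 14 alternatives. The difference between the KO effects at D6 and D0 was -1.38 (SE 0.365) and did not pass the test (edgeR adjusted p = 0.0725, 8.58e-25 to 0.163 over the alternatives).

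The H2A.X experiment, which chose LGALS1, gave another pattern. LGALS1 stood at 6.73 and 8.99 CPM in WT at D0 and at 21.5 and 12.6 CPM in WT at D6, higher at D6 in both libraries (log2 fold change 1.13, SE 0.421). In H2A.X KO it was at 61.8, 48.1 and 35.3 CPM at D0 and at 0.261, 0.541 and 1.10 CPM at D6, which came from 5, 10 and 20 reads (log2 fold change -6.25, SE 0.446). KO was thus 6.16-fold above WT at D0 (log2 fold change 2.62, SE 0.412) and 27.0-fold below it at D6 (-4.75, SE 0.453), without overlap on either day. KO replicate 3, the library without Redo in its name, was the highest KO library at D6, and without it the log2 fold change at D6 was -5.37. The WT libraries on both days lay between the KO libraries of D0 and those of D6. The part of their maturation index, of the Redo libraries and of transcript length in these LGALS1 values was not tested. With each library corrected for transcript length and GC content, the log2 fold changes were 3.42 at D0 and -3.57 at D6.

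**Figure D2:**
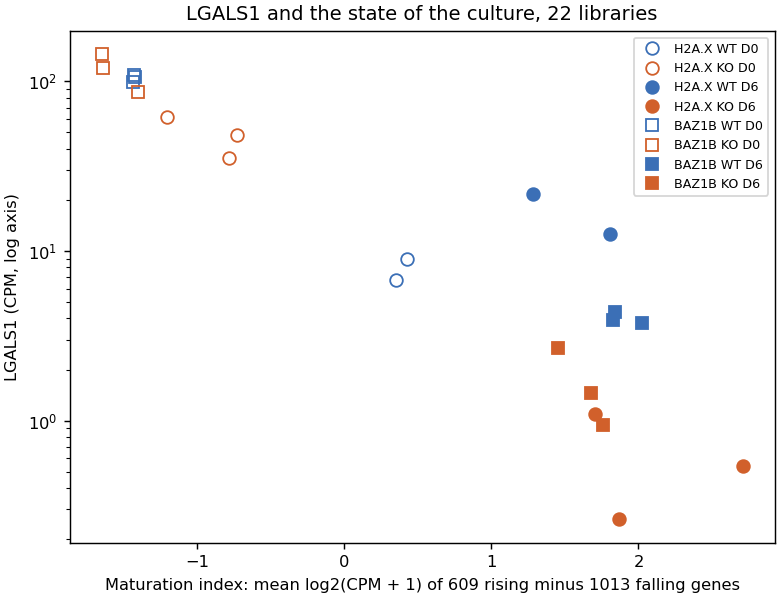
LGALS1 level in CPM (log axis) against the maturation index (mean log2(CPM + 1) of the 609 rising minus the 1013 falling genes) in 22 libraries, with circles for the H2A.X and squares for the BAZ1B experiment, open symbols for D0, filled for D6, blue for WT and orange for KO. The H2A.X WT libraries at D0 (0.35 and 0.43) lie between the other D0 libraries and the D6 libraries, and the H2A.X WT libraries at D6 have more LGALS1 than other D6 libraries with a like index.

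Markers of other lineages also differed between the groups, and not always in the direction of LGALS1. The list for mast cells and eosinophils held 9 markers, CPA3, HDC, TPSAB1 and KIT among them. In H2A.X WT at D0 and in every group at D6, 6 of the 9 were below 1 CPM in all libraries. In the other groups 2 or 3 were. The summed level of the 9 was 335 to 385 CPM in H2A.X WT and 766 to 1456 CPM in H2A.X KO at D0. At D6 it was 258 to 420 CPM in WT and 99.3 to 220 CPM in KO. In the BAZ1B experiment it was 1167 to 1232 CPM in WT and 1182 to 1425 CPM in KO at D0, and 194 to 212 CPM in WT and 196 to 376 CPM in KO at D6. CLC, the eosinophil galectin, had 0 reads in all 10 H2A.X libraries and 1 read in 1 BAZ1B library. Of this list CPA3, HDC and CLC were at 0 in H2A.X WT at D0. At D6 HDC, EPX and CLC were at 0 in both genotypes of that experiment. TPSAB1 of the same list was present there, and averaged 36.4 CPM in WT and 102 CPM in KO at D0. Its D6 means were 60.9 CPM in WT and 2.33 CPM in KO. The 6 megakaryocyte markers, of which 1 passed the filter and PF4 and PPBP were at 0 in all groups, summed to 8.72 to 9.67 CPM in H2A.X WT and 32.7 to 75.7 CPM in KO at D0, and to 3.57 to 7.93 CPM in WT and 1.93 to 4.84 CPM in KO at D6. In BAZ1B libraries they summed to 72.4 to 75.5 CPM in WT and 34.4 to 67.6 CPM in KO at D0, and to 8.32 to 10.4 CPM and 1.42 to 4.77 CPM at D6. The 7 monocyte and macrophage markers summed to 0.173 to 0.409 CPM in H2A.X WT and 1.40 to 2.21 CPM in KO at D0, and to 0.130 to 0.407 CPM and 0.330 to 0.541 CPM at D6. Their sums were 4.43 to 6.37 CPM in BAZ1B WT and 1.99 to 6.06 CPM in KO at D0, and 0.743 to 0.813 CPM and 0.279 to 0.587 CPM at D6. From D0 to D6 in H2A.X WT, where LGALS1 was higher at D6, the mast cell and monocyte sums overlapped and the megakaryocyte sum was lower at D6. TPSAB1 was higher at D6 there without overlap. The lymphoid sum was also higher, at 0.0575 to 0.204 CPM at D0 and 0.306 to 1.43 CPM at D6. The 6 fibroblast and endothelial markers summed to at most 0.298 CPM and the 6 lymphoid ones to at most 1.43 CPM in any library. The part of these markers in the LGALS1 values was not tested.

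The genes whose log2 CPM followed LGALS1 most closely over the 12 BAZ1B libraries were CAPG, an actin-capping protein (Pearson's r 0.998), TMSB4X, which binds actin monomers (0.997), APPL1 (0.997), EPAS1, a hypoxia-inducible factor (0.997) and ARHGDIB (0.996). The points share depth, days and genotypes, and the 5 genes were picked as the closest, so this is a description. CAPG averaged 37.4 CPM in WT and 47.7 CPM in KO at D0, and 2.38 and 1.01 CPM at D6. Over the 10 H2A.X libraries the closest were CDK15 (0.984), SAMD4A (0.975), GCSAML (0.971), TPSAB1, a mast cell tryptase (0.968), and IFITM3, an interferon-induced membrane protein (0.967). GCSAML averaged 3.78 CPM in WT and 39.5 CPM in KO at D0, and 11.6 and 0.763 CPM at D6.

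LGALS3, the chimera galectin, lies on chromosome 14 from 55124110 to 55145423 on the plus strand. In the BAZ1B experiment its 12 libraries spanned 209 to 299 CPM, with group means of 273 ± 5.36 CPM (SD, n = 3) in WT and 275 ± 22.2 in KO at D0, and 260 ± 13.9 and 251 ± 40.2 at D6. No comparison of LGALS3 there passed the test, and the log2 fold change from D0 to D6 in WT was -0.07 with a 95% interval of -0.28 to 0.15 (edgeR adjusted p = 0.531). In the H2A.X experiment LGALS3 stood at 384 and 544 CPM in WT and 331, 247 and 282 CPM in KO at D0, and at 483 and 564 CPM in WT and 238, 383 and 358 CPM in KO at D6. KO was below WT without overlap on both days, with log2 fold changes of -0.69 (SE 0.231) and -0.68 (SE 0.231). With the correction for length and GC content these were -0.10 and 0.04. From D0 to D6 its level did not pass the test in WT (0.17, SE 0.256, edgeR adjusted p = 0.751) or KO (0.19, SE 0.209, edgeR adjusted p = 0.538).

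LGALS3BP, the secreted partner, lies on chromosome 17 from 78971238 to 78979947 on the minus strand. In the BAZ1B experiment it stood at 2.31, 3.07 and 2.84 CPM in WT and at 2.07, 3.66 and 3.22 CPM in KO at D0, with overlap (log2 fold change 0.12, SE 0.237, edgeR adjusted p = 0.869). At D6 it was at 0.891, 1.23 and 0.992 CPM in WT, from 30, 41 and 37 reads, and at 4.46, 2.63 and 3.76 CPM in KO, from 169, 85 and 135 reads. Every KO library was above every WT library, 3.48-fold on the whole (log2 fold change 1.80, SE 0.259, edgeR adjusted p = 6.64e-04), and 86 of the 13879 genes tested had a higher log2 fold change. This call held in all 14 alternatives, with adjusted p up to 0.00529. In WT, LGALS3BP fell 2.64-fold from D0 to D6 (log2 fold change -1.40, SE 0.259, edgeR adjusted p = 3.39e-04), while the KO libraries of the days overlapped (0.28, SE 0.236, 95% interval -0.26 to 0.82, edgeR adjusted p = 0.310). The difference between the KO effects at D6 and D0 was itself 1.68 (SE 0.351, edgeR adjusted p = 0.0275, 7.43e-06 to 0.0832 over the alternatives). It lost its call without any 1 of WT replicates 1, 2 and 3 or KO replicate 3 at D0, or WT replicates 1 and 3 or KO replicate 3 at D6, with values of 1.58 to 1.79. These contrasts share the WT libraries at D6.

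In the H2A.X experiment LGALS3BP varied widely between KO subclones. It stood at 1.09 and 1.23 CPM in WT and 0.337, 7.43 and 1.69 CPM in KO at D0, and at 0.390 and 0 CPM in WT and 2.56, 5.36 and 0.220 CPM in KO at D6. KO replicate 2 was highest on both days, and KO and WT overlapped on both. The log2 fold changes of 1.44 at D0 and 3.55 at D6 had SEs of 1.28 and 1.62, and the first was -0.19 without KO replicate 2 at D0.

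The sequence below is 220 of the 250 bases before the RefSeq start of LGALS3BP on GRCh38.p14, chr17:78979954-78980173 on the minus strand. The bases next to that start are not printed, because the gene as drawn in GENCODE 44 begins within them. The sequence is shown because the LGALS3BP difference between BAZ1B KO and WT at D6 was called in every alternative. The capitals mark the letters GAAA repeated after any 2 bases, the core of the element through which interferon acts on many genes, which starts 58 bases before the RefSeq start.

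LGALS3BP: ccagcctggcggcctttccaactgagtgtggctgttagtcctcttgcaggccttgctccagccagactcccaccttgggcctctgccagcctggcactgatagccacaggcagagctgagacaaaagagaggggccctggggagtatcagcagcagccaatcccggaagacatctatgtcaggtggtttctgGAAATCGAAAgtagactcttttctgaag

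Searched on both strands in the 250 bases before each start, these letters occurred in 1061 of 35116 RefSeq promoters (3.02%), and in those of LGALS3, LGALS8 (3 starts) and LGALS9 they did not. A match is a string of letters, not a measured binding site. The table used here holds no promoter of LGALS1 or LGALS12.

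LGALS8, whose tandem-repeat protein marks damaged vesicles, lies on chromosome 1 from 236518000 to 236552981 on the plus strand. HEATR1 on the other strand covers 22.1% of its exonic bases and LGALS8-AS1 4.49%, and since the labels and the study's methods name different kits, one of them without strand, reads of these genes could not be told apart for certain. In the BAZ1B experiment LGALS8 spanned only 46.5 to 55.9 CPM over 12 libraries, and its log2 fold changes lay between 0.01 and 0.12 in the 4 comparisons of days or genotypes, with edgeR adjusted p from 0.246 to 0.929. In the H2A.X experiment it stood at 43.2 and 36.5 CPM in WT and 77.7, 60.5 and 63.8 CPM in KO at D0, and at 37.6 and 34.8 CPM in WT and 65.6, 92.0 and 57.5 CPM in KO at D6. KO was above WT without overlap on both days (log2 fold changes 0.76, SE 0.214, and 0.99, SE 0.217). With the correction for length and GC content both values were 0.25. The canonical transcript of LGALS8 has 5957 bp, against 528 bp for LGALS1 and 958 bp for LGALS3. Its days did not differ past the test in WT (-0.14, edgeR adjusted p = 0.787) or KO (0.09, edgeR adjusted p = 0.749).

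LGALS9, a secreted tandem-repeat galectin and ligand of the receptor TIM-3 (HAVCR2), lies on chromosome 17 from 27629798 to 27649560 on the plus strand. Its near copies LGALS9B and LGALS9C share whole reads with it: 20.6% of the 75-base windows of its canonical transcript also occur in transcripts of other genes, LGALS9B, LGALS9C and LGALS9DP among them. The stretch below, bases 496 to 570 of the coding sequence from GENCODE 44, shows how little separates them; the capitals mark the 3 bases at which each copy differs from LGALS9.

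LGALS9: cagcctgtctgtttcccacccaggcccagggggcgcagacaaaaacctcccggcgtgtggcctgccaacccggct
LGALS9B: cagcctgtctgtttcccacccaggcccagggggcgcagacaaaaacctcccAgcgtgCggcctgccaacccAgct
LGALS9C: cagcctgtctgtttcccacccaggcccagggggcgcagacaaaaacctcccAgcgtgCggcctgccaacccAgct

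LGALS9B had at most 2 reads and LGALS9C at most 3 reads in any library, so nearly all reads that the counting gave to these 3 genes were on LGALS9. In BAZ1B WT, LGALS9 rose from 119, 123 and 113 CPM at D0 to 182, 161 and 185 CPM at D6, 1.49-fold and without overlap (log2 fold change 0.58, SE 0.0609, edgeR adjusted p = 2.15e-06). In BAZ1B KO it rose from 108, 97.8 and 93.9 CPM to 175, 166 and 168 CPM, 1.70-fold (log2 fold change 0.76, SE 0.0613, edgeR adjusted p = 1.68e-07). At D0 the 3 KO libraries lay below the 3 WT libraries (log2 fold change -0.24, SE 0.0612), a difference just short of the threshold (edgeR adjusted p = 0.0515, 2.19e-04 to 0.230 over the alternatives) that was called in 6 of the 14. At D6 they overlapped (-0.05, 95% interval -0.19 to 0.09, edgeR adjusted p = 0.628). In H2A.X KO, LGALS9 went from 73.8, 85.4 and 73.6 CPM at D0 to 91.7, 168 and 136 CPM at D6, a rise of 1.70-fold (log2 fold change 0.77, SE 0.199, edgeR adjusted p = 0.0158, 4.11e-04 to 0.0622 over the alternatives). The call was lost without KO replicate 1 or 3 at D0 or KO replicate 2 at D6, with values of 0.56 to 0.73. In H2A.X WT it stood at 105 and 121 CPM at D0 and 135 and 124 CPM at D6 (0.20, SE 0.243, edgeR adjusted p = 0.697), and KO minus WT was -0.54 (SE 0.220) at D0 and 0.03 (SE 0.222) at D6.

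**Figure D3:**
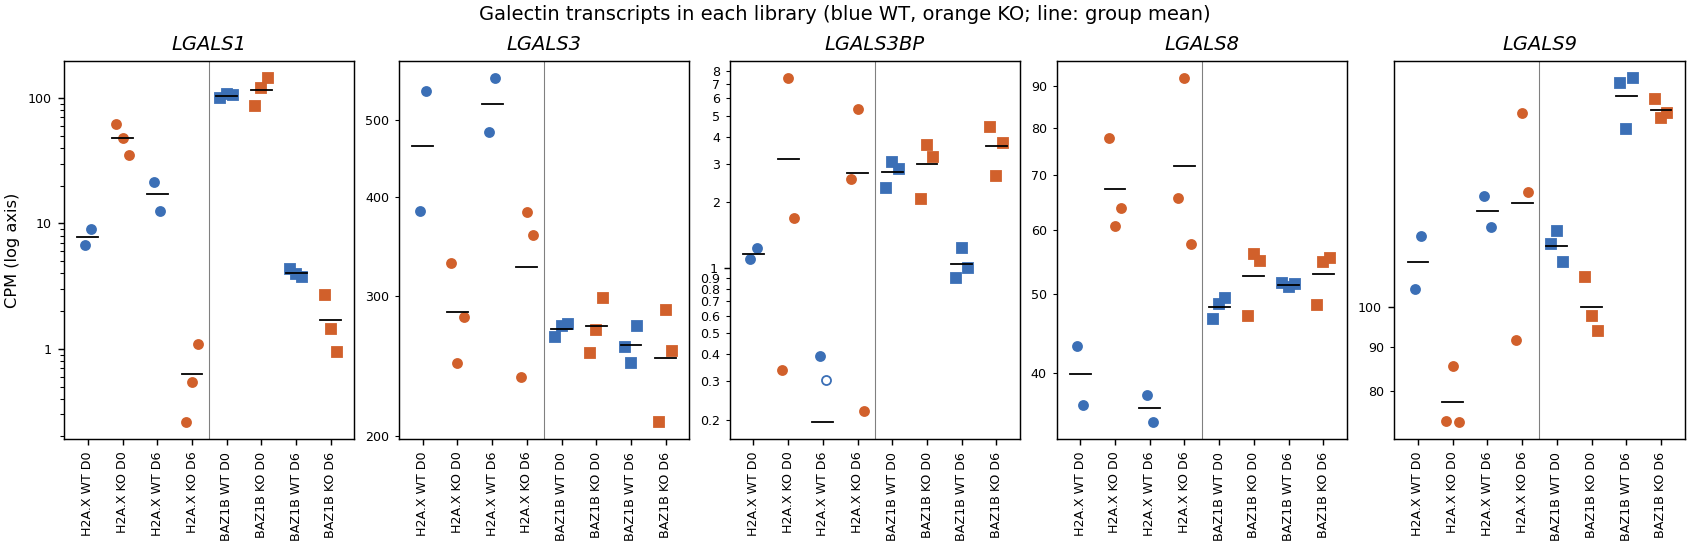
Level of 5 galectin transcripts in CPM (log axes that differ between panels) in each library, with circles for the H2A.X and squares for the BAZ1B experiment, blue for WT, orange for KO, and a line at the group mean; the open circle is a count of 0 drawn at the value of 3 reads. LGALS1 spans 0.261 to 144 CPM, while LGALS3 and LGALS8 in the BAZ1B experiment stay within 209 to 299 and 46.5 to 55.9 CPM.

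The counts of galectin genes called stand against the share of all tested genes called in the same comparison (edgeR, adjusted p below 0.05). Between BAZ1B KO and WT at D6, 2 of the 5 tested members were called, LGALS3BP higher and LGALS1 lower, where 12.8% of all genes were called. At D0, 0 of 5 were called by edgeR, 1 had an unadjusted p below 0.05, and DESeq2 called 1, where 3.88% of all genes were called. For the difference between the KO effects 1 of 5 was called, against 2.47% of all genes. From D0 to D6, 3 of 5 were called in WT, against 68.9% of all genes, and 2 of 5 in KO, against 67.7%, which is no more than the share of all genes. In the H2A.X experiment 2 of 5 were called from D0 to D6 in KO, LGALS1 and LGALS9, against 30.9% of all genes, and 0 of 5 in WT by edgeR and by DESeq2, where 1 had an unadjusted p below 0.05 and 2% of all genes were called. Between KO and WT 3 of 5 were called at D0 and 3 at D6, LGALS1, LGALS3 and LGALS8 on both days, against 35.1% and 43.1% of all genes, and 1 for the difference between these effects, against 1.34%. LGALS1 was chosen by its levels in the H2A.X experiment, so nothing is read from the counts that include it there.

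Under a stricter rule, an adjusted p below 0.001 with an absolute log2 fold change above 1.5, LGALS3BP was called in BAZ1B KO against WT at D6, where 0.749% of all genes were, and 0 members at D0, where 0.36% were, and 0 for the difference between these effects (0.0288%). LGALS1 was called from D0 to D6 in BAZ1B WT (11.7% of all genes) and BAZ1B KO (11.5%). In the contrasts that chose LGALS1 the rule called 3.22% of all genes from D0 to D6 in H2A.X KO, and 0.166% at D0 and 0.151% at D6 in H2A.X KO against WT, and its calls of LGALS1 there are no test. For the difference between the H2A.X KO effects and for the days in H2A.X WT this rule called 0% of all genes, where edgeR gave 2016 and 2796 genes an unadjusted p below 0.05 and DESeq2 called 166 and 140 genes by the same rule.

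**Figure D4:**
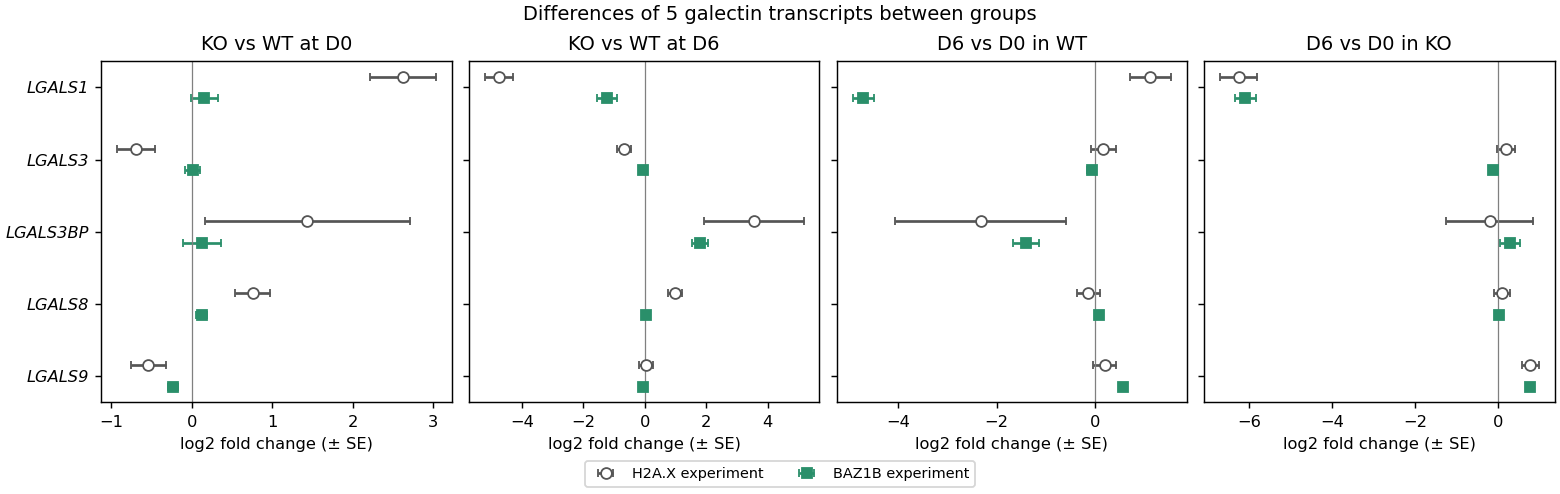
Log2 fold change with SE of 5 galectin transcripts in KO against WT at D0 and D6 and in D6 against D0 in WT and KO, with open circles for the H2A.X and filled squares for the BAZ1B experiment; the axes differ between panels. LGALS1 falls from D0 to D6 in both KO and in BAZ1B WT, but is 1.13 higher at D6 in H2A.X WT.

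Of 12 other galectin or galectin-like genes, 7 had a read in any library and only LGALS7 and LGALS7B, near copies that share 82.1% of the windows of LGALS7 and so are uncertain one by one, passed the filter. LGALS4 had at most 7 reads in a library, LGALSL at most 2 and CLC at most 1, and LGALS2, LGALS13, LGALS14, LGALS16 and GRIFIN had none, which allows at most 0.0688 to 0.306 CPM in a library. From D0 to D6, LGALS7B went from 17, 24 and 23 reads to 5, 8 and 13 reads in BAZ1B WT. In BAZ1B KO its log2 fold change was -1.63 (SE 0.408). In H2A.X KO, LGALS7B fell from 113 reads over 3 libraries at D0 to 10 reads over 3 at D6 (-3.28, SE 0.672, edgeR adjusted p = 0.00513). LGALS7 went from 46 to 5 reads (-2.94, SE 0.594). No p is given for LGALS7, or for LGALS7B in the BAZ1B experiment. Their levels were highest at D0, where they could pass the filter. Since the copies share most windows, these are not 2 separate results. In H2A.X KO against WT at D6 both were lower without overlap (LGALS7B -2.64, SE 0.747, and LGALS7 -2.16, SE 0.708), while at D0 the libraries overlapped (0.50, SE 0.629, and -0.17, SE 0.519). Between BAZ1B KO and WT 0 of the 2 were called by edgeR or DESeq2 on either day, and 0 had an unadjusted p below 0.05.

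Of 17 glycoproteins and adaptors known as galectin partners, 13 were tested. From D0 to D6 in BAZ1B WT 5 rose and 7 fell, where 33.5% of all genes were called higher and 35.4% lower, and the median log2 fold change of the 13 was -0.15 against -0.02 over all genes. TFRC, the transferrin receptor, rose (1.65, SE 0.0616, edgeR adjusted p = 2.24e-10), and PTPRC (CD45), the integrin ITGA5 and the sialoglycoprotein SPN fell by 1.46, 1.04 and 0.89 on the log2 scale. Between BAZ1B KO and WT 0 of 13 were called at D0 by edgeR or DESeq2, with 0 at an unadjusted p below 0.05, where 1.25% of all genes were called higher and 2.64% lower. At D6, CD44, the hyaluronan receptor, and ITGB1 were higher by 0.24 and 0.21, and SLC3A2 lower by -0.31, so that 2 were higher and 1 lower of 13, where 6.87% of all genes were called higher and 5.97% lower, and the median was 0.01 against -0.00. In H2A.X KO against WT 2 were higher and 1 lower at D0 (SPN 1.10, ITGA4 0.62 and BSG -0.84), and 5 were higher at D6, led by ITGB1 at 1.97. Of all genes, 18.4% at D0 and 22.2% at D6 were called higher, and 16.7% and 20.9% lower. These partner values are not corrected for transcript length, with which the H2A.X KO fold changes rose, and the part of length was not tested.

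Of 24 enzymes that branch, extend or cap galactose-ended glycans, 22 were tested. In BAZ1B WT 12 rose and 5 fell from D0 to D6, where 33.5% of all genes were called higher and 35.4% lower, with a median of 0.21 against -0.02 over all genes. GCNT1, which branches O-glycans, and MGAT5, which makes the branched N-glycans that galectin-3 favours, fell by 3.22 and 2.68 on the log2 scale. MGAT4A and B4GALT5 rose by 3.21 and 1.51. MGAT4A had 16 reads over the 3 WT libraries at D0 and 124 at D6. It could thus pass the filter only through D6, and its rise is a description. The sialyltransferase ST3GAL4, which caps galactose, was lower in BAZ1B KO than in WT at both D0 (-1.90, SE 0.316, edgeR adjusted p = 0.00415) and D6 (-1.84, SE 0.291, edgeR adjusted p = 0.00121). It was the only one of the 22 called at D0, where 3.88% of all genes were called. At D6, where 12.8% were, MGAT3 was also higher (0.38) and C1GALT1 (-0.29) and B4GALT3 (-0.23) lower. The medians between BAZ1B KO and WT were 0.02 at D0 and 0.03 at D6, against 0.00 and -0.00 over all genes. In H2A.X KO against WT 5 were higher and 2 lower at D0, GCNT1 and MGAT5 (2.08) highest among them. At D6, 7 were higher and 3 lower, led by MGAT4A at 3.94 (SE 0.952). MGAT4A had 4 reads over the 2 WT libraries at D6 and 136 over the 3 KO libraries. It could pass the filter only through KO libraries, so its value is a description. The medians of the 22 were 0.34 at D0 and 0.31 at D6, against 0.01 and -0.01 over all genes. Of all genes, 18.4% were called higher and 16.7% lower at D0, and 22.2% and 20.9% at D6. In this experiment the log2 fold change of KO against WT rose with transcript length (Spearman's correlation 0.54 at D0 and 0.60 at D6). The values and medians of these enzymes are not corrected for length, and its part in them was not tested.

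Genes around LGALS1 on chromosome 22 did not move as one. Of 12 neighbours 9 were tested. From D0 to D6 in BAZ1B WT 4 rose and 3 fell. H1F0, a linker histone gene that starts 129.6 kb away, rose by 5.62 on the log2 scale. It had 16 reads over the 3 WT libraries at D0 and 659 at D6. H1F0 could thus pass the filter only through D6, and its rise is a description. GCAT rose by 2.51, and SH3BP1, which starts 41.0 kb before LGALS1, fell by 2.14. Of all genes, 33.5% were called higher and 35.4% lower. The nearest genes, PDXP and NOL12, were at -0.03 (SE 0.215, edgeR adjusted p = 0.912) and 0.70 (SE 0.318, edgeR adjusted p = 0.0654). Between BAZ1B KO and WT at D6, H1F0 was higher (1.62, SE 0.261, edgeR adjusted p = 0.00138). The other 8 tested neighbours were not called by edgeR, where 12.8% of all genes were called. Of the 9, 2 had an unadjusted p below 0.05 and DESeq2 called 2. At D0 GCAT was lower (-0.70, edgeR adjusted p = 0.0334), where 3.88% of all genes were called. In H2A.X KO against WT 0 were higher and 2 lower at D0, NOL12 and ANKRD54, and 1 was higher and 3 lower at D6, with SH3BP1 at -2.44 and H1F0 at 2.05. There 18.4% and 16.7% of all genes were called higher and lower at D0, and 22.2% and 20.9% at D6. The neighbour values are likewise not corrected for transcript length.

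**Figure D5:**
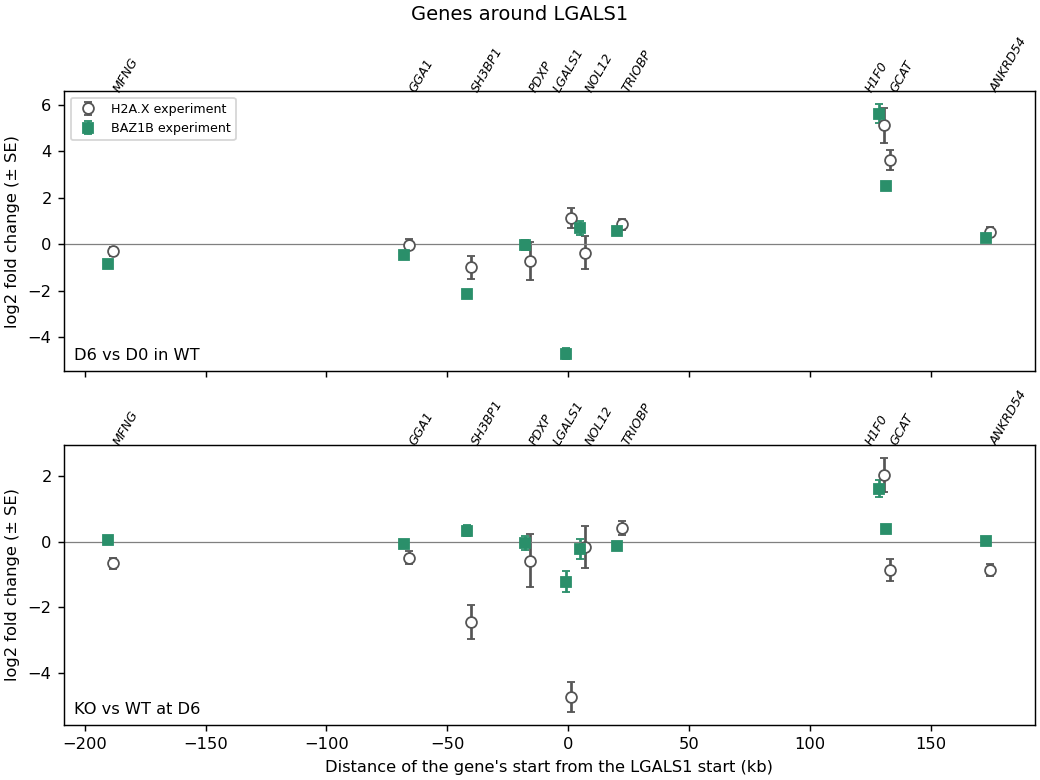
Log2 fold change with SE of LGALS1 and its 9 tested neighbours against the distance of each gene's start from that of LGALS1 in kb, for D6 against D0 in WT (top) and KO against WT at D6 (bottom), with open circles for the H2A.X and filled squares for the BAZ1B experiment. LGALS1 is lowest in the BAZ1B experiment in both panels, and H1F0, 129.6 kb away, is highest.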

How the data were processed

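RNA-Seq libraries of HUDEP-2 cells were made by the authors from total RNA. Per the labels and the study's methods, the deposited values are raw counts of reads per gene, which the authors made on hg38 with STAR 2.7.0f and featureCounts (Subread 1.6.4) and did not normalize; DESeq2 1.22.1 stands in the submitters' processing notes too. The sources name different kits and read lengths, so strand was not settled.

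Each experiment was fitted alone over 4 groups (genotype by day) with edgeR 4.0.16 in R 4.3.3: TMM factors, filterByExpr (minimum count 10, minimum total 15) and the quasi-likelihood test without a block, with Benjamini-Hochberg adjustment over all 13236 (H2A.X) or 13879 (BAZ1B) genes tested and calls at an adjusted p below 0.05. Depth was 11910141 to 41273244 counts per library. Limits from a count of 0 used 3 reads and cover counting error only. DESeq2 1.42.0, other scalings, no filter, a correction of each library for length and GC content (loess span 0.3), replicate blocks and leaving out each library were alternatives. The code was tested on simulated data. Figures used matplotlib 3.10.9. Gene names matched GENCODE 44 for 36434 of 59087 names directly and 753 by an older name.

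The members and all lists were chosen with earlier results of these data known. Named were the 6 members, the targets, other galectins with a read, at most 4 called genes of each other list per comparison (largest absolute log2 fold change), and the 5 genes closest to LGALS1 by Pearson's r. PDXP and NOL12, the nearest neighbours of LGALS1, and markers at 0 fall outside this rule and were named after their values were seen.

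KO numbers name subclones, and same-numbered KO libraries of D0 and D6 deviated together (r 0.304 to 0.609 for H2A.X, 0.157 to 0.654 for BAZ1B), so the numbers pair the days in KO. Same-numbered WT libraries of D0 and D6 had r 0.443 for H2A.X and 0.00330 to 0.165 for BAZ1B. WT and KO libraries of a day share only a number, with r 0.0614 to 0.217 for H2A.X and -0.0521 to 0.150 for BAZ1B. Replicates differed beyond sampling noise.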

Additional observations from a re-analysis of the deposited data

Results flagged for a closer look

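In the BAZ1B experiment 343 of 13879 genes (2.47%) were called in a test of the difference between the KO effects of the days (edgeR). Among the 5 tested members, 13 partners, 22 enzymes and 9 neighbours of LGALS1, 4 genes were called. For LGALS3BP the call was lost without some single libraries, with adjusted p up to 0.0832 over the alternatives. The KO effect was higher at D6 than at D0 by 1.68 on the log2 scale for LGALS3BP (adjusted p = 0.0275), by 0.31 for CD44 (adjusted p = 0.0410), by 0.35 for MGAT3 (adjusted p = 0.00658) and by 1.09 for GCAT (adjusted p = 0.0190).

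LGALS1 moved in opposite directions in all libraries of the groups compared, and these values are a description. No test of the differences is given within the H2A.X experiment, since its levels there chose the gene, and the difference between the experiments was not tested. KO against WT was 2.62 at D0 and -4.75 at D6 on the log2 scale in the H2A.X experiment. D6 against D0 was 1.13 in H2A.X WT and -6.25 in H2A.X KO. The same day comparison was -4.71 in BAZ1B WT, in a table normalized separately.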

How the results depend on the processing

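With the stricter rule the members called were 0 at D0 and 1 at D6 for H2A.X KO against WT, 0 for the difference of these effects, 1 for D6 against D0 in H2A.X KO, 1 for BAZ1B KO against WT at D6, 0 for the difference of the BAZ1B effects, and 1 each for the days in BAZ1B WT and KO. In H2A.X KO against WT, 3 members were called on each day, where 35.1% of all genes were at D0 and 43.1% at D6. With the length and GC correction 1 was called on each day, also with the replicate block, and 5 at D0 without the filter. The shares of all genes called under such alternatives are not given, so nothing is read from these changes or from those without 1 library. In H2A.X KO against WT, LGALS3 at D6 turned to 0.036 with the correction and 0.038 with the correction and block. Without the filter 2 members were called for D6 against D0 in H2A.X WT, and adjusted p-values were far smaller for several genes; the cause was not tested. For BAZ1B KO against WT at D0, DESeq2, no filter, and the length and GC correction with or without the block each called 1 member, LGALS9. For the difference of the BAZ1B effects DESeq2 and no filter each called 2. Upper-quartile scaling moved the median of all genes by -0.11 in H2A.X KO against WT at D6.

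Leaving out 1 library gave 0 to 3 members for H2A.X KO against WT at D0 (0 without WT replicate 2, 1 without KO replicate 1), 1 to 4 at D6 (1 without WT replicate 2), 1 to 2 for D6 against D0 in H2A.X KO, 0 to 2 for BAZ1B KO against WT at D0 (2 without KO replicate 1), 1 to 2 at D6, and 0 to 2 for the difference of the BAZ1B effects.

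The replicate block for the pairing of subclones left the day comparisons in KO at 2 members each. Between WT and KO, where libraries share only a number, the block called 1 member for BAZ1B at D0 (LGALS9, -0.24, adjusted p = 0.0404, same-day correlations -0.05 to 0.15) and changed no other count. Over all alternatives, 641 values of single members kept direction and side of the threshold, 24 passed it, 33 lost it and 2 turned. Depth limits LGALS12, LGALS7 and LGALS1 in H2A.X KO at D6.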
